A study of Mus musculus with 19 samples.

Results

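High-scatter cholinergic cells of the mouse nasal epithelium were compared with low-scatter cholinergic cells by bulk RNA sequencing. The comparison used 14 of the 19 libraries of the series, chosen by the sort gate in their labels: 5 libraries of cells with high forward and side scatter (FSChi/SSChi, here FSChi) and 9 of cells with low forward and side scatter (FSClow/SSClow, here FSClow). The other 5 libraries, of epithelial cells without eGFP (EpCAM), served as a reference for transcripts of other epithelial cells. All 19 libraries came from naive ChAT(BAC)-eGFP mice, a B6.Cg strain with the transgene Tg(RP23-268L19-EGFP)2Mik, which is a bacterial artificial chromosome with eGFP under Chat regulatory sequence. The eGFP gate therefore reports the activity of that transgene, and both FSChi and FSClow were CD45- EpCAM+ eGFP+, whereas the reference was CD45- EpCAM+ eGFP-. Cells were released from nasal tissue by dispase followed by papain, stained with propidium iodide to gate out dead cells, and collected in lysis buffer by sorting. Age, sex and the number of animals behind a library are not given in the sources used here, and p-values describe library-to-library spread, which may be technical.

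Cholinergic chemosensory cells, called brush, tuft or solitary chemosensory cells depending on the tissue, carry taste receptors and signal through a taste-type cascade. In that cascade a receptor activates a G protein, phospholipase C releases calcium through an inositol trisphosphate receptor, and the cation channel Trpm5 opens. In the nose they release acetylcholine, IL-25 and lipid mediators such as cysteinyl leukotrienes. The nasal epithelium also holds olfactory sensory neurons, sustentacular cells, basal cells, gland and secretory cells and ionocytes, whose transcripts can enter a sorted library.

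Total counts ranged from 1348428 to 7477695 in FSChi and from 2151281 to 5439263 in FSClow. The groups were not shown to differ in total counts, detected genes or the shares of mitochondrially encoded and ribosomal RNA (two-sided exact permutation test, adjusted p = 0.20 for each of 4 measures). FSChi replicate 2 was the shallowest library and had 13062 detected genes, against 16179 to 17829 in the other FSChi libraries and 14523 to 16065 in FSClow. The columns of the count table labelled FSChi 3, 4 and 5 did not match their own deposited single-library file best. The single-library file of FSChi 3 held 6807 expected counts, and EpCAM 1 and 2 were interchanged. The best match of each was a file of the same group, but column FSChi 5 matched no file as closely as the other columns did (r = 0.927, against 0.961 to 0.972), so its identity is not settled, and replicate numbers of these columns may not name the intended library. Leading counts are given with and without the 3 FSChi columns. Libraries of both eGFP-positive gates lay above EpCAM for tuft and brush cell genes. Over 33 such genes the sum was 14116 to 23028 CPM in FSChi and 19361 to 23727 CPM in FSClow. In EpCAM it was 462 to 734 CPM. The list includes Chat, whose regulatory sequence drives eGFP, and was chosen with earlier results of these data known. The sums of the gates overlap, so they do not show which gate or replicate a column holds. CPM is a count scaled to a common library size with TMM factors, and is not corrected for gene length.

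More genes were higher than lower in FSChi, and the rises were far larger than the falls. Of 13340 genes tested, 3310 were called different between the gates (24.8%). Of these, 2069 were called higher in FSChi (15.5%) and 1241 lower (9.3%), by edgeR's quasi-likelihood test at a Benjamini-Hochberg adjusted p under 0.05, from which all adjusted p below come. The median log2 fold change was 2.52 among genes called higher and -1.02 among genes called lower, and -0.01 over all genes tested. At least 4-fold differences were fitted for 1236 genes called higher and 64 called lower, and at least 8-fold differences for 865 and 3. Every FSChi library lay above every FSClow library for 531 tested genes (3.98%) and below for 340 (2.55%). Without the 3 FSChi columns that did not match their file, 1524 genes were called higher and 506 lower. Without FSChi replicate 1, the counts were 1897 and 808, and without FSChi replicate 4 they were 1836 and 798.

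The EpCAM reference separated genes called higher into groups of different kinds. For 1377 of the 2069 genes called higher (66.6%) the EpCAM mean lay above the FSChi mean, so that FSChi was intermediate between FSClow and eGFP-negative epithelium. Over all genes tested, the EpCAM mean lay above both gates for 37.9%. The filter on low counts used all 19 libraries, so a gene could pass it through EpCAM alone. With only the 14 FSChi and FSClow libraries, 1179 genes were called higher. In the other 692 genes the FSChi mean was the highest of the 3 groups. For 142 of the genes called higher, every FSChi library lay above every library of both other groups, a count made only among called genes. Among genes called lower the order differed: the EpCAM mean was below both gates for 676 of 1241 (54.5%) and between them for 506 (40.8%). Over all genes tested these shares were 39.15% and 22.9%. The level of a gene in a bulk library reflects both the share of cells that express it and the RNA per cell, and these cannot be told apart here.

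**Figure D1:**
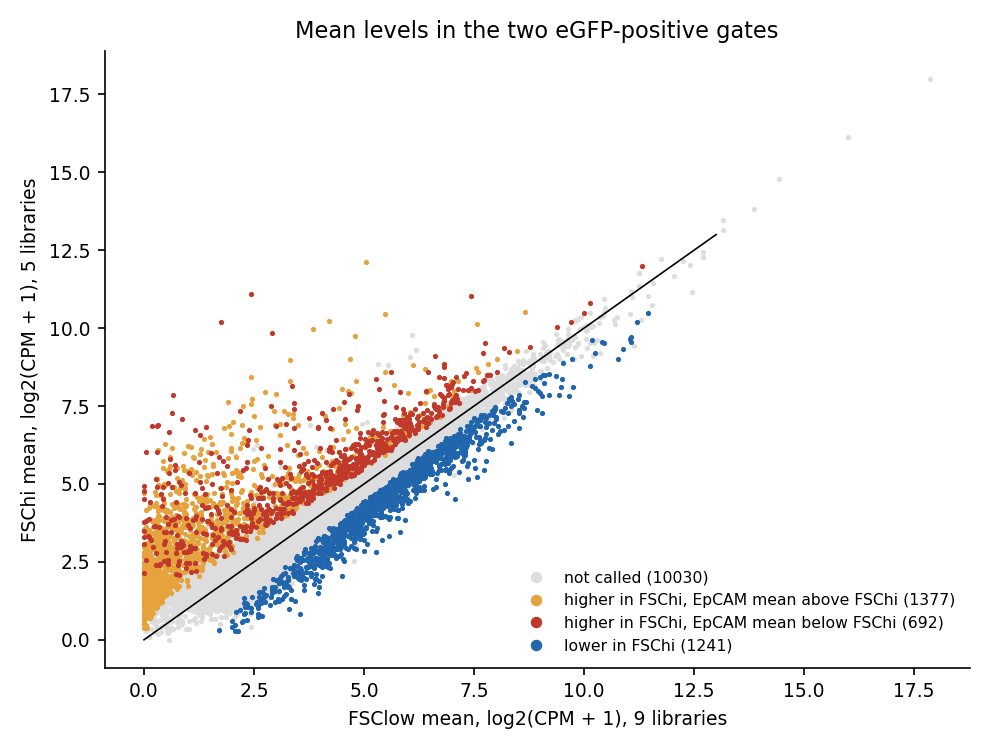
Mean level of each of 13340 tested genes in FSClow (x axis, 9 libraries) and FSChi (y axis, 5 libraries), both as log2(CPM + 1), with the line of equal levels. Each point is a gene: 1377 genes called higher in FSChi had a still higher EpCAM mean and cluster at low FSClow levels, 692 called higher had an EpCAM mean below FSChi, and the 1241 called lower form a narrower band under the line.

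The genes given as markers of the gates separated the libraries without overlap. Krt19 (Entrez 16669, chr11:100140810-100145926), a simple-epithelium keratin, stood at 881, 1129, 463, 610 and 1461 CPM in FSChi replicates 1 to 5. In FSClow its lowest, median and highest levels were 2.11, 5.12 and 15.1 CPM, and EpCAM held 151 to 339 CPM. Every FSChi library lay above every library of both other groups, and the log2 fold change over FSClow was 7.11 ± 0.43 (SE, adjusted p = 1.5e-10).

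Jakmip1 (Entrez 76071, chr5:37025852-37150614), a microtubule-associated protein, stood at 131, 119, 58.1, 94.6 and 122 CPM in FSChi and at 0, 1.06 and 3.33 CPM (lowest, median, highest) in FSClow. Its log2 fold change was 6.37 ± 0.33 (adjusted p = 1.1e-11), but EpCAM libraries held 71.9 to 113 CPM, a range that overlaps FSChi. The neurotrophin gene Bdnf (Entrez 12064, chr2:109674700-109727043) stood at 106, 74.7, 17.9, 23.5 and 96.8 CPM in FSChi. It had 1075 counts in FSChi and 1 count in all FSClow libraries together, a ratio of pooled CPM of 1429 with a 95% interval of 256 to 56510 that covers counting error only. EpCAM held 0.31 to 5.42 CPM of Bdnf.

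Ptgs1 (Entrez 19224, chr2:36216742-36258593), the constitutive cyclooxygenase of prostanoid synthesis, marked the other gate. It stood at 472, 743, 968, 636 and 431 CPM in FSChi, against 1568, 1845 and 2383 CPM in FSClow. The fall was 1.55 ± 0.23 on the log2 scale (adjusted p = 2.2e-05), and all FSChi libraries still lay far above the 19.1 to 46.9 CPM of EpCAM.

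**Figure D2:**
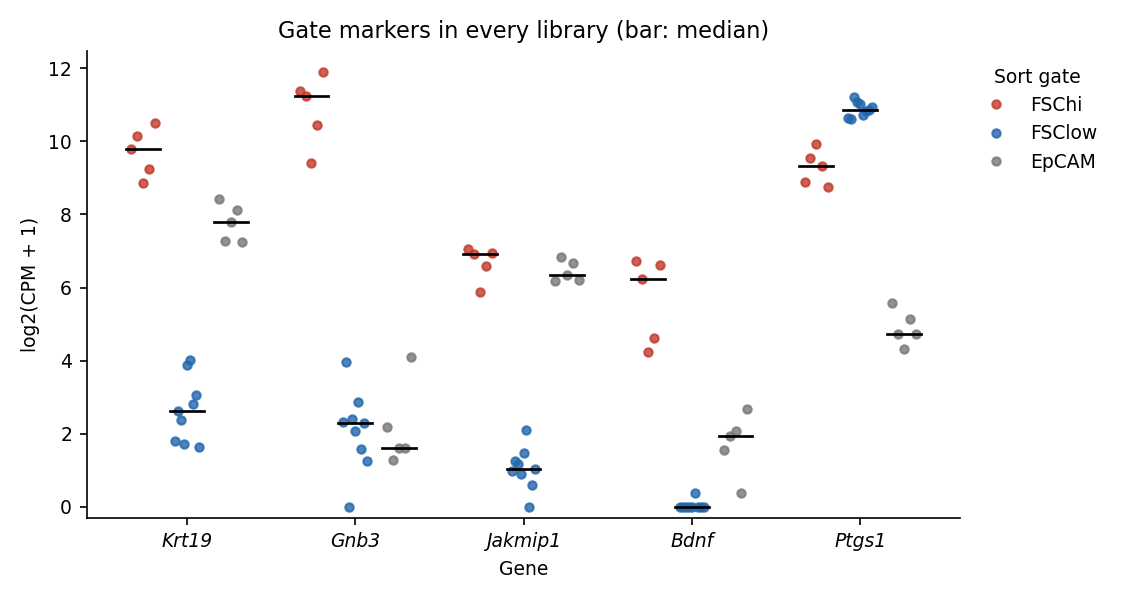
Level of the 5 gate markers (x axis) in every library as log2(CPM + 1) (y axis); points are libraries (5 FSChi, 9 FSClow, 5 EpCAM) and bars are group medians. Krt19, Gnb3, Jakmip1 and Bdnf are higher in every FSChi library than in every FSClow library, Ptgs1 is lower, and Jakmip1 is as high in EpCAM as in FSChi.

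Every taste receptor that could be tested separated the gates. The table held 38 taste receptor genes (Tas1r, the sweet and umami family, and Tas2r, the bitter family), of which 9 passed the filter on low counts. All 9 were called higher in FSChi, beside 15.5% of all genes tested, and in all 9 no FSChi library overlapped FSClow, beside 3.98%. A receptor passes the filter mainly through the gate where it is high, so the 9 do not stand for the family. Over all 38 receptors, filtered or not, the mean CPM was higher in FSChi for 36 and higher in FSClow for 2. Their summed level was 1084, 1294, 442, 622 and 2339 CPM in FSChi, 64.5, 149 and 198 CPM (lowest, median, highest) in FSClow and 3.58 to 8.05 CPM in EpCAM. When the 3 FSChi columns were left out, 14 receptors passed the filter and 14 were called higher.

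Tas2r108 (Entrez 57253, chr6:40493592-40494485) made up 71.2% of the mean family sum in FSClow and 47.1% in FSChi, as counts not corrected for length. It stood at 294, 697, 254, 366 and 1114 CPM in FSChi and at 38.2, 111 and 154 CPM in FSClow, a log2 fold change of 2.49 ± 0.43 (adjusted p = 0.00017). Tas2r138 stood at 143, 115, 53.4, 76.0 and 178 CPM against 3.22, 14.3 and 25.7 CPM (2.95 ± 0.34, adjusted p = 2.7e-06). Both were thus present in every library of both gates.

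Other receptors were close to absent from FSClow. Tas2r105 (Entrez 57252, chr6:131686561-131687463) stood at 162, 118, 19.8, 45.0 and 239 CPM in FSChi, where it had 1896 counts, and had 7 counts in FSClow, in 2 of 9 libraries. Its log2 fold change was 8.69 ± 0.74 (adjusted p = 1.9e-07), or 10.67 without FSClow replicate 6. Tas2r118 had 955 counts in FSChi and 13 in FSClow, all in replicate 5, with a log2 fold change of 6.73 ± 0.86 that was 10.84 without that library and 6.12 without FSChi replicate 1. Tas2r129 had 487 counts against 6, all in FSClow replicate 6, with a log2 fold change of 7.12 ± 0.86 that was 10.12 without that library and 6.38 without FSChi replicate 5. In FSChi these 3 receptors were lowest in replicates 3 and 4.

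Tas2r126 stood at 16.2, 45.0, 18.95, 17.2 and 37.9 CPM in FSChi and at 1.88, 2.82 and 4.78 CPM in FSClow (log2 fold change 3.17 ± 0.46). Tas2r137 stood at 5.41, 28.9, 5.51, 6.91 and 12.4 CPM against 0, 0.40 and 3.94 CPM (3.42 ± 0.69, or 2.81 without FSChi replicate 2). Tas1r3, the subunit shared by sweet and umami receptors, stood at 38.8, 90.8, 40.6, 36.6 and 153 CPM against 9.42, 17.9 and 29.5 CPM (2.00 ± 0.33). Tas1r1, the umami partner, stood at 12.9, 19.3, 6.72, 17.6 and 86.5 CPM against 0, 0 and 2.23 CPM, a log2 fold change of 5.35 ± 0.69 that was 4.40 without FSChi replicate 5 and 6.18 without FSClow replicate 8. The sweet partner Tas1r2 had no count in FSChi and 9 in FSClow.

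Because the receptors rose together, the 250 bases before the annotated start of their RefSeq models (GRCm38.p6) were read. They were searched for the octamer ATGCAAAT on both strands (ATTTGCAT on the other strand), the sequence that POU factors bind. Pou2f3, the POU factor required for chemosensory cells, was not called different between the gates, at 88.2, 240, 170, 108 and 144 CPM in FSChi and 128, 205 and 227 CPM in FSClow (log2 fold change -0.35 ± 0.25, adjusted p = 0.34). The octamer was present in 7 of 34 taste receptor windows (20.6%) and in 4 of the 9 windows of tested receptors (44.4%). For comparison, it was present in 1.6% of all 32851 windows of this length, 179 of the 13002 windows of tested genes (1.38%), 17 of 670 windows of genes called higher with FSChi above EpCAM (2.54%) and 24 of 1273 windows of genes called lower (1.89%). Receptor genes are related in sequence and lie in clusters, so their windows are not independent, and a match is a description and not a shown site. The 9 tested receptors passed the filter mainly through FSChi, so their share does not compare the gates. The windows below belong to the 4 tested receptors with a match and to Tas2r105, which has the largest fitted rise among the 9 tested receptors and has none. Those of Rgs21, a taste signalling gene high in FSChi, and of Prkcb, which is lower in FSChi, are shown because both also carry the octamer. Each is written 5′ to 3′ on the strand of its gene, ends at the base before an annotated transcript start, and has the octamer in capitals.
Tas2r108, chr6:40493342-40493591, plus strand: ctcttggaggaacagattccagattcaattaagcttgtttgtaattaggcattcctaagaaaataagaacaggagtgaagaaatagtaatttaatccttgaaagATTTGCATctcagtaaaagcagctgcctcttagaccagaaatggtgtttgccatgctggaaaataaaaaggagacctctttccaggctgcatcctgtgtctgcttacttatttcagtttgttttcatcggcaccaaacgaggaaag
Tas2r118, chr6:23970061-23970310, minus strand: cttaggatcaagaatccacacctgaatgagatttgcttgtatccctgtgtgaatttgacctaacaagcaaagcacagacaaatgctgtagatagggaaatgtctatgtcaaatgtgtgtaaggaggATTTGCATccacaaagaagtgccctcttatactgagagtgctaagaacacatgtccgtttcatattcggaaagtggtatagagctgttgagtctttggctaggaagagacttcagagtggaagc
Tas2r126, chr6:42434285-42434534, plus strand: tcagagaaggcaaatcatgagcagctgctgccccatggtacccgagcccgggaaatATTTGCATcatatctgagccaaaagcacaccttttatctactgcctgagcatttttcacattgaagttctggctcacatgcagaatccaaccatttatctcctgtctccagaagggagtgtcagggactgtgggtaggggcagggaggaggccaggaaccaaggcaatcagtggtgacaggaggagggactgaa
Tas2r137, chr6:40490988-40491237, plus strand: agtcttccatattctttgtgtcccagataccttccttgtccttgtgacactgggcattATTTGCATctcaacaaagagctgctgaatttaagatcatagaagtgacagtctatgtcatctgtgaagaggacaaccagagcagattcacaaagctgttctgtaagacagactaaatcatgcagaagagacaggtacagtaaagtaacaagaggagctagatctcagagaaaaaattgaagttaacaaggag
Tas2r105, chr6:131687464-131687713, minus strand: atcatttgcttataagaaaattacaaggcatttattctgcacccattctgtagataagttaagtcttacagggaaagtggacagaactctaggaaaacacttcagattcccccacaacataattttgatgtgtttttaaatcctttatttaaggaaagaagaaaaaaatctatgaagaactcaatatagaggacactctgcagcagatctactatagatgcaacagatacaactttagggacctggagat
Rgs21, chr1:144567668-144567917, minus strand: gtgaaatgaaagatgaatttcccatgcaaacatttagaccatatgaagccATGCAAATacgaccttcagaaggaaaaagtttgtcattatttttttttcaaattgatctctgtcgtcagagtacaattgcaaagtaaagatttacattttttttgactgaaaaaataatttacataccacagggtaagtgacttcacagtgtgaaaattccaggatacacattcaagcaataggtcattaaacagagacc
Prkcb, chr7:122288875-122289124, plus strand: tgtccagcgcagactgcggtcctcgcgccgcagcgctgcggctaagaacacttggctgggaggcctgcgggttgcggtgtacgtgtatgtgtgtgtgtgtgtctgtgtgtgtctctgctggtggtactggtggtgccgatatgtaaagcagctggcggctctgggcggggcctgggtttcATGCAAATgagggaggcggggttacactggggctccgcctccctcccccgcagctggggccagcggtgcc
These 7 windows were chosen by whether they hold the octamer, so they illustrate it and do not show how often it occurs on either side.

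Part of the genes that carry the taste signal inside the cell were also higher. Of 16 listed taste transduction genes 13 were tested, 8 were called higher, beside 15.5% of all genes tested, and 0 lower, and their median log2 fold change was 1.17. Leaving out the 3 FSChi columns gave 7 calls. Gnb3 (Entrez 14695, chr6:124834240-124840275), the G protein beta subunit of taste cells, stood at 2653, 2398, 679, 1383 and 3775 CPM in FSChi and at 0, 3.94 and 14.7 CPM in FSClow. With 1.43 to 16.3 CPM in EpCAM, no other library came near the FSChi level (log2 fold change 8.91 ± 0.73, adjusted p = 5.2e-08). Gnat3 (Entrez 242851, chr5:17962570-18019668), the alpha subunit gustducin, stood at 2912, 2600, 755, 1134 and 3144 CPM against 98.0, 153 and 258 CPM in FSClow (3.61 ± 0.58, adjusted p = 0.00011). The gamma subunit gene Gng13 stood at 460, 218, 139, 174 and 278 CPM against 43.0, 59.6 and 161 CPM, with ranges that overlap (1.61 ± 0.32, adjusted p = 0.00061). EpCAM held 0 to 5.87 CPM of Gnat3 and 32.9 to 80.0 CPM of Gng13. FSClow thus lay above the eGFP-negative epithelium for Gnat3, whereas its ranges overlapped those of EpCAM for Gng13 and Gnb3.

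Downstream, Itpr3, the calcium-releasing receptor, stood at 32.7, 107, 27.7, 38.8 and 129 CPM in FSChi and at 6.14, 8.60 and 19.1 CPM in FSClow (2.79 ± 0.34, adjusted p = 1.7e-06). The transmitter release channel Calhm1 had 487 counts in FSChi and 0 in the 9 FSClow libraries, and was at least 216-fold higher by pooled CPM against a floor of 3 counts over FSClow. Rgs21, a regulator of G protein signalling whose window is printed above, stood at 64.9, 163, 18.1, 33.2 and 220 CPM in FSChi, had 12 counts in 3 FSClow libraries and none in EpCAM (7.71 ± 0.80, or 9.06 without FSClow replicate 5). The 2 other genes called higher were Gnb1 (1.17 ± 0.22), which was higher still in EpCAM, and Gna14 (0.61 ± 0.21, adjusted p = 0.038). The call on Gna14 was lost without FSChi replicate 2, 3 or 4 or FSClow replicate 6, 8 or 9 (adjusted p 0.058 to 0.086). Plcb2, the phospholipase of the cascade, and Trpm5, its channel, were not called, with log2 fold changes of 0.36 ± 0.35 (adjusted p = 0.50) and -0.56 ± 0.45 (adjusted p = 0.40).

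Beyond taste, Lpl and Lipc were among the genes with the largest rises that also lay above EpCAM. Lpl, lipoprotein lipase, stood at 117, 126, 14.4, 91.1 and 231 CPM in FSChi and had 4 counts in FSClow, all in replicate 6 (9.38 ± 0.76, adjusted p = 1.4e-08, or 11.88 without that library). Lipc, hepatic lipase, stood at 146, 93.2, 18.8, 54.7 and 265 CPM and had 8 counts in FSClow (8.56 ± 0.59, adjusted p = 8.5e-10). EpCAM means of Lpl and Lipc were 0.56 and 0.33 CPM, and no FSChi library overlapped FSClow for either gene. A related lipase gene, Lipg, was called lower (-2.17 ± 0.43, adjusted p = 0.00061), at 4.96 to 19.9 CPM in FSChi and 10.5 to 101 CPM in FSClow.

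Rac2, Il10 and Lgals9 also had high levels in FSChi and few counts in FSClow. Rac2, a small GTPase of hematopoietic cells, stood at 222, 428, 113, 177 and 200 CPM in FSChi, had 15 counts in 3 FSClow libraries and none in EpCAM (8.63 ± 0.59, adjusted p = 1.8e-08, or 9.78 without FSClow replicate 3). The interleukin gene Il10 stood at 86.8, 56.3, 23.9, 40.1 and 111 CPM in FSChi and had 9 counts in FSClow (7.57 ± 0.62, or 8.24 without FSClow replicate 8), with an EpCAM mean of 0.90 CPM. Lgals9, which encodes galectin-9, stood at 228, 140, 56.7, 97.6 and 252 CPM and had 14 counts in FSClow (8.15 ± 0.63, or 10.02 without FSClow replicate 2). Markers of leukocytes, which the CD45- gate should remove, summed to 34.7 to 620 CPM in FSChi over 18 genes. The sums were 43.0 to 125 CPM in FSClow and 424 to 3345 CPM in EpCAM. Lyz2, also in the gland cell list, alone stood at 416 to 3339 CPM in EpCAM and at 594 CPM in FSChi replicate 4. Ptprc, the CD45 gene, stood at 2.61 to 18.0 CPM in FSChi, 4.78 to 32.4 CPM in FSClow and 0 in EpCAM. The part of leukocyte RNA in Rac2, Il10 and Lgals9 was not tested.

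Several further genes had all FSChi libraries above all other libraries. Ovol3, an OVO-family zinc finger gene, stood at 171, 163, 47.2, 83.6 and 204 CPM in FSChi and at 0, 0.50 and 3.41 CPM in FSClow (7.29 ± 0.60, or 7.97 without FSClow replicate 2). Tnc, the matrix protein tenascin C, stood at 157, 731, 128, 112 and 286 CPM against 1.49, 7.97 and 23.6 CPM (4.89 ± 0.57, or 4.17 without FSChi replicate 2). Tnfaip8 had the smallest p of these, at 160, 289, 54.7, 101 and 211 CPM against 1.49, 3.36 and 7.04 CPM (5.49 ± 0.32, adjusted p = 6.4e-11). Slc44a4, a choline transporter-like protein, stood at 117, 244, 145, 172 and 169 CPM against 2.97, 7.97 and 19.4 CPM in FSClow and 30.7 to 52.0 CPM in EpCAM (4.08 ± 0.29, adjusted p = 8.5e-10). The acid sphingomyelinase-like gene Smpdl3a stood at 295, 389, 415, 188 and 359 CPM against 21.5, 38.7 and 57.0 CPM (3.12 ± 0.22). Ngb, which encodes neuroglobin, stood at 69.1, 24.1, 2.96, 5.41 and 56.7 CPM in FSChi, above the FSClow maximum of 1.61 CPM in each library (5.98 ± 0.78). Ovol3, Tnc, Ngb and Il10 were chosen for the text after their values were seen.

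A different set of genes rose in FSChi but had a still higher mean in EpCAM. All 18 markers of mature olfactory sensory neurons were called higher, beside 15.5% of all genes tested, with a median log2 fold change of 6.18. In all 18 the EpCAM mean lay above the FSChi mean. Their summed level was 4607, 28.1, 1882, 4012 and 2310 CPM in FSChi replicates 1 to 5, 47.3 to 172 CPM in FSClow and 5197 to 9514 CPM in EpCAM. FSChi replicate 2 thus lay below every FSClow library, and the other 4 lay between FSClow and EpCAM. Omp, the olfactory marker protein, stood at 1796, 1.61, 749, 1748 and 729 CPM in FSChi and at 0, 4.43 and 46.4 CPM in FSClow (6.26 ± 1.04, adjusted p = 0.00026). The channel subunit genes Cnga2 and Cnga4 had no count in FSChi replicate 2, and 51.3 to 116 CPM and 59.7 to 136 CPM in the other FSChi libraries. Their log2 fold changes were 6.96 ± 0.79 and 7.75 ± 0.76, or 8.57 and 8.37 without FSClow replicate 9. EpCAM held 1550 to 2910 CPM of Omp, 197 to 421 CPM of Cnga2 and 87.6 to 188.5 CPM of Cnga4. FSChi replicates 1 and 4 lay within the EpCAM range for Omp and Cnga4.

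Markers of other epithelial cells were called higher in part, beside 15.5% of all genes tested called higher and 9.3% lower. Of basal cell genes 10 of 13 tested were called higher and 1 lower, of secretory cell genes 12 of 14 higher, of sustentacular cell genes 9 of 14 higher and of immature neuron and progenitor genes 12 of 15 higher. Fewer were called among gland cell genes (4 of 11 higher, 1 lower), ionocyte and Ascl3 microvillar cell genes (5 of 10 higher) and ciliated cell genes (5 of 14 higher). The EpCAM mean lay above FSChi for all of those called higher in these 7 lists except the secretory gene Spdef and the ciliated cell gene Tppp3. With the 3 FSChi columns left out, the counts called higher were 10 basal, 6 secretory, 4 sustentacular, 10 immature neuron, 1 gland, 1 ionocyte and 4 ciliated cell genes. Krt5, the basal cell keratin, stood at 150, 11.3, 3.76, 35.3 and 185 CPM in FSChi, 0, 1.15 and 8.47 CPM in FSClow and 293 to 990 CPM in EpCAM (5.33 ± 0.92, or 6.24 without FSClow replicate 6). Bpifa1, an abundant airway secretory protein, stood at 302 to 11620 CPM in FSChi, 10.9 to 124 CPM in FSClow and 1629 to 13466 CPM in EpCAM (7.14 ± 0.89, or 6.46 without FSChi replicate 5 and 7.78 without FSClow replicate 1). The sustentacular and secretory enzyme gene Cyp2f2 stood at 1051, 162, 467, 1840 and 749 CPM in FSChi and at 2.51, 13.7 and 89.2 CPM in FSClow (5.01 ± 0.65). In FSChi replicate 2 the secretory sum was 815 CPM, against 76.0 to 494 CPM in FSClow. Basal sums were 285 and 235 CPM in FSChi replicates 2 and 3, within the FSClow range of 137 to 297 CPM. Those of replicates 1, 4 and 5 lay above it. Immature neuron sums were 801, 248, 693, 1375 and 241 CPM in FSChi replicates 1 to 5, against 242 to 331 CPM in FSClow. Gland cell sums were 517, 284, 2320, 5918 and 401 CPM, against 364 to 1384 CPM. Ionocyte sums lay above the FSClow maximum of 1215 CPM in FSChi replicates 3 and 4 only, at 1324 and 1641 CPM.

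The FSChi libraries differed in how these sets were combined. Of the 692 genes called higher with FSChi above EpCAM, 85.1%, 80.2%, 59.7%, 70.5% and 85.0% lay above every FSClow library in FSChi replicates 1 to 5. Of the 1377 with EpCAM above FSChi, the shares were 84.0%, 32.2%, 73.9%, 95.2% and 75.7%. FSChi replicate 2 was thus low in the second set and among the high libraries in the first, while replicate 3 was lowest in the first. Both sets were chosen with these libraries included, so the shares are descriptions. Taste receptors, Gnb3 and Gnat3 were high in replicate 2 at neuron marker levels under those of FSClow. The part of other cells' RNA in the genes of the second set was not tested.

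**Figure D3:**
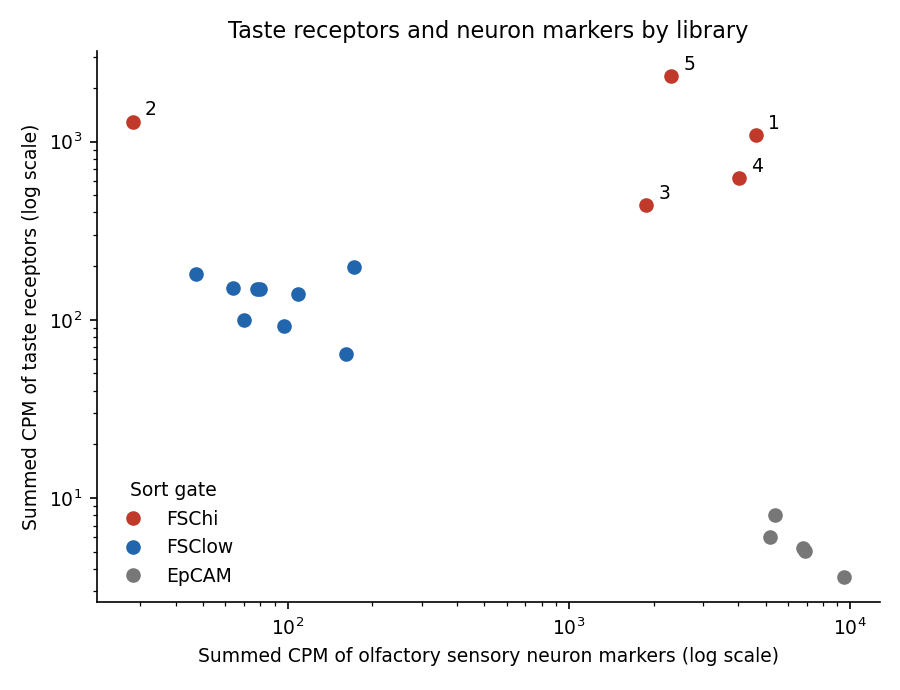
Summed CPM of 18 olfactory sensory neuron markers (x axis, log scale) and of 38 taste receptor genes (y axis, log scale); each point is a library and numbers are FSChi replicates. All 5 FSChi libraries lie at 442 CPM or more of taste receptors, above the FSClow maximum of 198, while FSChi replicate 2 has the lowest neuron marker sum of all libraries, 28.1 CPM.

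Genes higher in FSClow differed by smaller folds. Every FSClow library lay above every library of both other groups for 238 of the 1241 genes called lower in FSChi, a count made only among called genes. The kinase gene Prkcb (Entrez 18751, chr7:122289104-122634402), protein kinase C beta, stood at 24.2, 32.9, 30.1, 23.2 and 15.6 CPM in FSChi and at 95.4, 118 and 146 CPM in FSClow. It fell by 2.22 ± 0.26 on the log2 scale (adjusted p = 1.4e-06), and EpCAM held 0 to 1.497 CPM. Other genes among those with the smallest p on this side were Kndc1, a Ras exchange factor gene (-1.76 ± 0.20), Adam22, a membrane protein without protease activity (-1.78 ± 0.22), Cd44, the hyaluronan receptor (-2.02 ± 0.27) and Cacnb4, a calcium channel beta subunit gene (-1.52 ± 0.21). For these 4 genes FSChi levels reached at most 37.9, 102, 121 and 56.0 CPM and FSClow levels were at least 72.3, 166, 175 and 93.2 CPM, so the gates did not overlap.

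The largest falls among abundant genes included the folate receptor gene Folr1 (Entrez 14275, chr7:101858331-101870788) and a group of schlafen genes. Folr1 stood at 22.6, 12.1, 45.2, 17.4 and 11.7 CPM in FSChi, 61.7, 114 and 279 CPM in FSClow and 0.20 to 3.56 CPM in EpCAM (-2.57 ± 0.43, adjusted p = 0.00011). Slfn9 stood at 17.4, 33.8, 68.7, 28.4 and 31.5 CPM against 104, 160 and 287 CPM (-2.38 ± 0.37). Slfn8 stood at 31.7, 31.3, 48.0, 23.3 and 38.6 CPM against 94.7, 185 and 230 CPM (-2.24 ± 0.35), and the pseudogene Slfn10-ps at 25.9 to 74.7 CPM against 122 to 308 CPM (-2.29 ± 0.41). Reads of such near-identical copies may have been split by the counting, so their separate values are uncertain. Runx1t1, a transcriptional corepressor gene, stood at 3.29, 2.41, 13.4, 9.15 and 1.77 CPM in FSChi against 22.3, 38.4 and 51.3 CPM in FSClow (-2.53 ± 0.38).

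The wider list of schlafen and interferon response genes had no common direction. Of 15 tested, 6 were called higher and 5 lower, beside 15.5% and 9.3% of all genes tested. For 3 of the 6 called higher the FSChi mean lay above the EpCAM mean, and for 3 below it. The 5 lower were Slfn5, Slfn8, Slfn9, Irf7 (-1.04 ± 0.24) and Usp18 (-1.45 ± 0.38), the last no longer called without the 3 FSChi columns (adjusted p = 0.30). Slfn5 stood at 7.05, 0, 14.4, 7.84 and 7.44 CPM in FSChi and at 12.6, 30.4 and 51.9 CPM in FSClow (-2.05 ± 0.45).

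**Figure D4:**
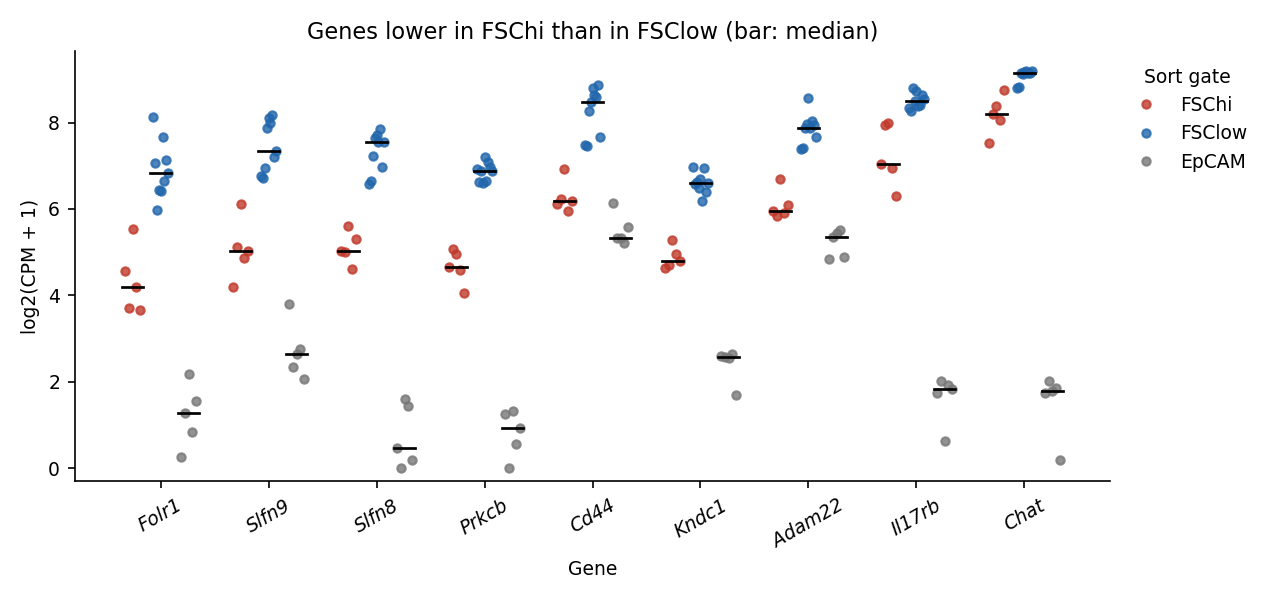
Level of 9 genes called lower in FSChi (x axis) in every library, as log2(CPM + 1) (y axis), with 5 FSChi, 9 FSClow and 5 EpCAM libraries as points and group medians as bars. The FSChi and FSClow points do not overlap for any of the 9 genes, and FSChi medians lie between FSClow and EpCAM.

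Some genes of the general tuft cell program were called lower in FSChi. The summed level of the list was 16169, 23028, 22670, 14116 and 17432 CPM in FSChi replicates 1 to 5. In FSClow it was 19361 to 23727 CPM, so FSChi replicates 2 and 3 lay within that range. Of 32 tuft and brush cell genes tested, 10 were called lower and 4 higher, beside 9.3% and 15.5% of all genes tested, with a median log2 fold change of -0.51. The 4 called higher were Gnat3 and Gng13, given above, Dclk1, a kinase used as a tuft cell marker (1.35 ± 0.27), and Lrmp, a membrane protein linked to calcium release (0.67 ± 0.19). Without the 3 FSChi columns 3 were called higher and 2 lower, whereas leaving out single libraries gave 8 to 12 lower. The falls included the homeobox genes Hmx3 (-1.24 ± 0.24) and Hmx2 (-1.41 ± 0.38), the repressor Gfi1b (-1.19 ± 0.29), the adaptors Fyb (-1.23 ± 0.32) and Sh2d7 (-1.36 ± 0.39) and the phospholipase Plcg2 (-1.47 ± 0.33). Without the 3 columns Plcg2 was the one of these 6 genes still called, and the log2 fold changes of the other 5 were -0.88 for Hmx3, -1.75 for Hmx2, -0.86 for Gfi1b, -0.96 for Fyb and -1.35 for Sh2d7. Among 27 transcription factor genes tested, 7 were called lower, among them Sox9 (-0.99 ± 0.25), Sox2 (-1.27 ± 0.30) and Pax6 (-1.31 ± 0.35), and 6 higher, among them Tox3 (2.55 ± 0.44). The Sox9 call was lost without the 3 FSChi columns (adjusted p = 0.16).

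In the list of type 2 cytokines and receptors, 2 of 8 genes tested were called lower, both receptor genes. A further 1 was called higher and 5 were not called, beside 9.3% lower and 15.5% higher over all genes tested. Il17rb, a subunit of the IL-25 receptor, stood at 131, 246, 251, 123 and 78.0 CPM in FSChi and at 308, 362 and 443 CPM in FSClow (-1.15 ± 0.27, adjusted p = 0.0024). Its adjusted p was 0.065 without the 3 FSChi columns. Il13ra1, a chain of the IL-13 receptor, stood at 172, 273, 553, 210 and 173 CPM against 416, 714 and 1134 CPM (-1.36 ± 0.33, adjusted p = 0.0036). Il4ra, the other chain of that receptor, was not called (-0.71 ± 0.26, adjusted p = 0.053), at 75.7 to 178 CPM in FSChi and 123 to 274 CPM in FSClow. Leaving out any one of FSChi replicates 2 and 3, FSClow replicates 1, 2 and 9 and EpCAM replicate 4 gave a call for Il4ra (adjusted p 0.027 to 0.044). The alarmin gene Il33 was the 1 called higher (1.43 ± 0.51, adjusted p = 0.042), at a mean of 33.1 CPM in EpCAM and with no count in FSChi replicate 2. The Il33 call was lost without FSChi replicate 1, 4 or 5 or FSClow replicate 1, 3, 4, 6 or 9 (adjusted p 0.058 to 0.22). Il25 itself stood at 963, 1040, 503, 608 and 309 CPM in FSChi and varied from 155 to 4931 CPM in FSClow, and was not called (-1.71 ± 0.64, adjusted p = 0.058). It was called lower without FSClow replicate 7 (adjusted p = 0.015) or EpCAM replicate 1 (adjusted p = 0.049).

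Genes of the mediators that these cells release were spread over both directions. Chat, the acetylcholine-synthesizing enzyme whose regulatory sequence drives eGFP, stood at 183, 291, 334, 266 and 433 CPM in FSChi and at 448, 564 and 587 CPM in FSClow, with 0.15 to 3.09 CPM in EpCAM. The gates did not overlap and Chat was called lower (-0.85 ± 0.28, adjusted p = 0.028), a call lost without FSChi replicate 1 or 4 or FSClow replicate 5 (adjusted p 0.053 to 0.095). Slc44a4, above, and Ache, which encodes acetylcholinesterase (3.75 ± 0.65), were the 2 genes of 8 tested in the acetylcholine list called higher. Chat was the 1 called lower, beside 15.5% higher and 9.3% lower over all genes tested. Ache stood at 0.94 to 5.67 CPM in FSChi and 5.62 to 20.9 CPM in EpCAM.

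In prostanoid synthesis, Ptgs1 and the inducible cyclooxygenase Ptgs2 (-2.77 ± 0.75, adjusted p = 0.0087) were lower, with Ptgs2 at 0.94 to 6.35 CPM in FSChi and 0.81, 14.7 and 61.0 CPM in FSClow. For this list and the next, 15.5% of all genes tested were called higher and 9.3% lower. Of the 11 prostanoid genes tested, the 3 called higher were Ptges (2.401 ± 0.451), Hpgd (3.01 ± 0.57) and Slco2a1. The Slco2a1 call was lost without FSChi replicate 1 (adjusted p = 0.0957). All 3 had their highest mean in EpCAM, and Slco2a1, with 26 counts in FSChi and none in FSClow, was at least 11.5-fold higher against a floor of 3 counts over FSClow. In leukotriene synthesis, the arachidonate-releasing phospholipase Pla2g4a (-1.48 ± 0.38, adjusted p = 0.0063) and the 5-lipoxygenase activating protein Alox5ap (-1.04 ± 0.36, adjusted p = 0.036) were the 2 called lower of 12 tested. The Alox5ap call was lost without FSChi replicate 2, 4 or 5 or FSClow replicate 1, 2 or 9 (adjusted p 0.050 to 0.12). Alox5, the lipoxygenase itself, and Ltc4s, the leukotriene C4 synthase, were not called (-0.61 ± 0.28, adjusted p = 0.11, and 0.43 ± 0.23, adjusted p = 0.18), though Alox5 was called lower without FSChi replicate 3 (adjusted p = 0.0432). The 3 called higher were Abcc1 (1.03 ± 0.31, adjusted p = 0.076 without FSChi replicate 5), Mgst2 (3.32 ± 0.73, or 4.03 without FSClow replicate 2) and Alox12 (2.63 ± 0.79, or 3.998 without FSClow replicate 6 and 1.79 with adjusted p = 0.14 without FSChi replicate 4). All 3 were highest in EpCAM.

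Nuclear genes of the respiratory chain, the mitochondrial complexes of oxidative phosphorylation, were in part higher in FSChi, by small amounts. Of 73 tested, 37 were called higher, beside 15.5% of all genes tested, 0 were called lower and 36 were not called, with a median log2 fold change of 0.70, and FSChi lay above EpCAM for 36 of the 37. Their summed level was 11521, 8397, 8279, 8678 and 9822 CPM in FSChi, 4776, 5685 and 8454 CPM in FSClow and 5787 to 10305 CPM in EpCAM, so the gates overlapped. Ndufa1 of complex I stood at 92.6, 59.5, 58.5, 50.6 and 58.1 CPM against 9.68, 20.1 and 30.7 CPM (1.80 ± 0.29, adjusted p = 6.6e-05). Ndufs8 of complex I, Cox5a of complex IV and Atp5o of the ATP synthase had log2 fold changes of 1.04 ± 0.21, 1.205 ± 0.243 and 1.15 ± 0.22. The count of members called higher ranged from 21 to 53 when single libraries were left out, and was 21 without FSChi replicate 1. Over all alternatives it ranged from 0 to 53, and was 20 without the 3 FSChi columns and 18 with RSEM expected counts. The 15 mitochondrially encoded genes had 0 calls in edgeR, as did 80 ribosomal protein genes, with median log2 fold changes of 0.45 and 0.12.

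Immediate early genes are induced by stimulation and by tissue dissociation. Of 20 early response and stress genes tested, 5 were called lower in FSChi and 1 higher, beside 9.3% and 15.5% of all genes tested, and 14 were not called. Their sums overlapped, at 7512 to 12155 CPM in FSChi and 3266 to 37484 CPM in FSClow. Fosb stood at 227, 266, 236, 235 and 151 CPM in FSChi and at 217, 898 and 1131 CPM in FSClow (-1.86 ± 0.33, adjusted p = 0.00019). FSClow replicate 7 was the lowest of its group for all 5 genes called lower. The calls on Jun, Egr1, Egr2 and Btg2 had adjusted p of 0.032 to 0.038, and between 1 and 3 members were called lower when any one of FSChi replicates 1 to 5, FSClow replicates 1, 2, 4, 5, 6 or 9 or EpCAM replicates 1 or 4 was left out. Without FSClow replicate 7, 11 were called lower, and without the 3 FSChi columns 1 was. The orphan receptor Nr4a3, outside this list, stood at 7.52, 1.61, 7.12, 8.03 and 6.38 CPM in FSChi and at 0, 32.1 and 55.0 CPM in FSClow (-2.26 ± 0.57). The 1 gene called higher, the heat shock gene Hspb1 (3.15 ± 0.50), had an EpCAM mean of 405 CPM.

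Most keratin and pan-epithelial genes were not called. Of 13 tested, 3 were called higher and 1 lower, beside 15.5% and 9.3% of all genes tested, and 9 were not called. Krt8 stood at 2043 to 3323 CPM in FSChi and 1030 to 4067 CPM in FSClow, so the gates overlapped. Epcam, used in the gate, was not called (-0.44 ± 0.21, adjusted p = 0.13), at 1244 to 2707 CPM in FSChi and 1850 to 3881 CPM in FSClow. Krt7 stood at 46.3, 65.1, 68.5, 87.0 and 61.7 CPM against 5.63, 11.1 and 35.4 CPM in FSClow and 202 to 336 CPM in EpCAM (2.14 ± 0.30). Outside that list, Prnp, the prion protein gene (3.58 ± 0.22), and Atp1b1, a sodium pump subunit gene (2.73 ± 0.19), were among the smallest p of all genes. Both stood in EpCAM at or above their FSChi level, with means of 279 and 712 CPM. Of 12 microvillus and apical actin genes tested, 1 was called higher, 2 lower and 9 were not called. Eps8, an actin-capping protein of microvilli, was 1 of those called lower (-1.44 ± 0.28), at 11.8 to 40.2 CPM against 45.6 to 70.3 CPM. Its call was lost without the 3 FSChi columns (adjusted p = 0.060).

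**Figure D5:**
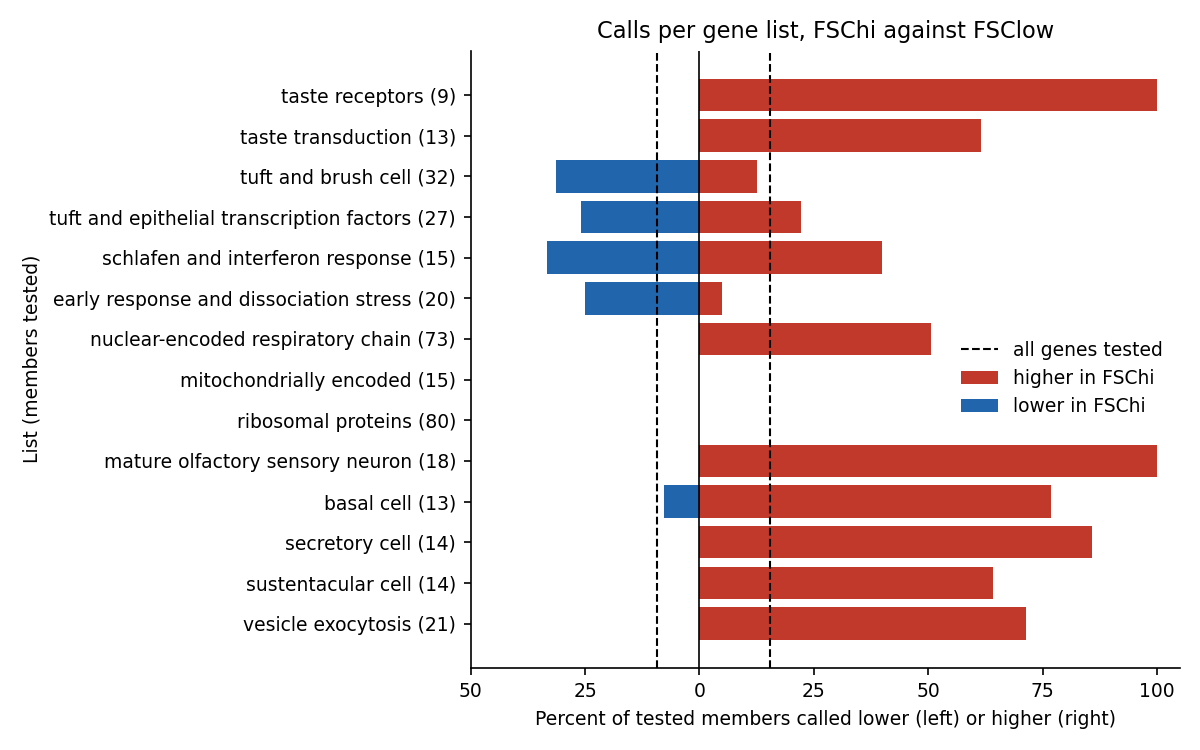
Percent of tested members called lower (left, blue) or higher (right, red) in FSChi for 14 gene lists (y axis, members tested in parentheses); dashed lines mark all genes tested, 9.3% lower and 15.5% higher. Taste receptors and olfactory neuron markers have all tested members called higher, tuft and brush cell genes exceed the line on the lower side, and ribosomal and mitochondrially encoded genes have no calls.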

How the data were processed

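The submitters' processing notes list mm10 and the tools RSEM 1.2.21, STAR 2.4.2a, Picard 1.1073, DESeq2 and featureCounts, without their roles. The authors deposited raw counts for 27179 Entrez identifiers. A normalized table deposited by the authors holds a signal, each value a count divided by a size factor; multiplied back, 100% of its values were whole within 0.01 and all 26221 rows equalled a count row. Single-library files deposited by the authors hold RSEM expected counts, rounded here before use, and TPM. Symbols and coordinates came from a RefSeq table (GRCm38.p6, the mm10 build) for 25275 identifiers and from matching rows for 582, and 0.982% of counts had no symbol. Whether counting used strand is not given in the sources used here, so overlapping genes may not be separable.

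Counts were filtered with filterByExpr, scaled by TMM and fitted with edgeR 4.0.16 (R 4.3.3) on all 19 libraries with group as the only term. FSChi and FSClow were compared by the robust quasi-likelihood F test, and SE came from the F statistic. Members, lists, tests and named genes were chosen with earlier results of these data known. In each direction the rule named 15 genes by size of change and 10 by p, requiring mean log2 CPM of 3 or more and over 1 CPM in 75% of libraries of the higher group. It added up to 5 members of each of 33 lists and 33 set genes. Further members that complete a list's account, and genes marked so in the text, were chosen after their values were seen. Results of some genes are not reported here. Floors (3 counts) and intervals (95%) cover counting error only. Alternatives used DESeq2 1.42.0 and limma 3.58.1, the latter on log2(value + 1), log2(TPM + 0.1) and log2(TPM + 1). The test was also tested on simulated data.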

Additional observations from a re-analysis of the deposited data

Results flagged for a closer look

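In 236 checks of single libraries against their own group (114 genes of the text in log2(CPM + 1) and 4 library measures, in FSChi and FSClow), 28 values (11.9%) stood apart by a gap that normally spread values give in about 1 of 20 groups. Where most libraries of a group hold 0, a few reads make such a gap, as for Bdnf with 1 count over FSClow. The share therefore does not show an excess of outlying libraries. Of the 28 values, 7 were of FSChi replicate 2: Omp at 1.61 CPM, Cnga2, Cnga4, Snap25 and Slfn5 at 0, Nr4a3 at 1.61 CPM and Hmx2 at 5.63 CPM, each the lowest of its group. In FSChi replicate 1, Pigr was the lowest at 17.9 CPM, and Ndufa1 at 92.6 CPM and Slco2a1 at 5.41 CPM were the highest. Cd44 was highest in FSChi replicate 3 at 121 CPM, and Fosb was lowest in FSChi replicate 5 at 151 CPM.

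Within FSClow, genes called higher in FSChi stood out in single libraries. FSClow replicate 6 held Bdnf at 0.30 CPM, Lpl at 1.21 CPM, Tas2r105 at 1.81 CPM, Tas2r129 at 1.81 CPM and Itpr3 at 19.1 CPM. Tas2r118 was at 4.66 CPM in replicate 5, Rac2 at 3.78 CPM in replicate 3 and Lgals9 at 3.75 CPM in replicate 2. Cnga2 was at 3.87 CPM in replicate 9 and Bpifa1 at 124 CPM in replicate 1, both genes with their highest mean in EpCAM. FSClow replicate 7 was far below the rest of its group for Fosb at 217 CPM, Btg2 at 345 CPM, Egr2 at 14.9 CPM, Lipg at 10.5 CPM and Nr4a3 at 0. FSClow replicate 8 had the most counts of its group, 5439263.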

How the results depend on the processing

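Over 37 alternative analyses and left-out libraries, the called genes named in the text gave 3890 values, of which 3540 kept direction and side of the threshold, 326 kept direction but lost the call and 24 reversed. For 29 of these genes nothing changed under any of the 37. Further calls were lost without the 3 FSChi columns. Among them were Chat (adjusted p = 0.065), Ptgs2 (0.080), Nr4a3 (0.084), Mki67 (0.13) and Gna14 (0.13). Others were Alox5ap (0.28), Alox12 (0.41), Abcc1 (0.56) and Il33 (0.595). The cause was not tested for any change below. The number called higher (2069) ranged from 1836 to 2229 when single libraries were left out, and the number called lower (1241) from 798 to 1350, the lowest without FSChi replicate 4 and 808 without FSChi replicate 1. With RSEM expected counts 810 genes were lower, and 731 with the FSChi 3 file left out. The authors' normalized values as log2(value + 1) gave 761 lower. Without the 3 FSChi columns 506 were lower, with only libraries that matched their own file 1331 were higher and 423 lower, and with only the 14 FSChi and FSClow libraries 1179 were higher. An absolute log2 fold change of at least 1 left 633 lower. Replicate numbers did not pair the libraries (correlations of deviations from -0.099 to 0.40, with 1 of 5 FSChi libraries closest to its own number); with a replicate block 1398 genes were higher and 584 lower, and Il25 was called lower (adjusted p = 0.0060).

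TPM results moved with the FSChi 3 file, which held 6807 expected counts. With log2(TPM + 0.1), 168 genes were higher and 171 lower, and with log2(TPM + 1), 325 and 665, at median log2 fold changes of -1.41 and -0.73 over all genes. Without that file the counts were 1138 and 801, and 1145 higher, at medians of -0.16 and -0.14. Reversed values with log2(TPM + 0.1) were Gng13 -1.49, Gnb1 -1.31, Gna14 -0.96, Plcb2 -2.08, Tas2r108 -0.61, Tas1r3 -0.13, Dclk1 -0.88, Ltc4s -2.20, Abcc1 -0.84, Ndufa1 -0.76, Ndufs8 -1.34, Atp5o -1.41, Il33 -1.62 and Kcnq1 -0.80. With log2(TPM + 1) they were Gng13 -0.83, Gnb1 -0.66, Gna14 -0.34, Plcb2 -1.41, Dclk1 -0.23, Ltc4s -1.53, Abcc1 -0.26, Ndufa1 -0.10, Ndufs8 -0.69, Atp5o -0.75, Il33 -0.49 and Kcnq1 -0.18. Without the FSChi 3 file, Plcb2 and Il33 were still negative, at -0.24 and -0.75 with log2(TPM + 0.1) and at -0.24 and -0.0812 with log2(TPM + 1). The share of calls that were higher was 62.5%, and moved by over 10 points to 72.7% (RSEM without the FSChi 3 file), 73.2% (authors' normalized values), 73.3% (no filter), 75.9% (libraries matching their file), 75.1% (without the 3 columns), 49.6% (log2(TPM + 0.1)) and 32.8% (log2(TPM + 1)). The shallowest library, FSChi replicate 2 with 1348428 counts, limits what a count of 0 shows there.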

Other observations

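Ion channel genes were among the groups that differed between the gates. Of 48 voltage-gated sodium, calcium and potassium channel genes tested, 27 were called higher in FSChi and 4 lower, beside 15.5% and 9.3% of all genes tested, by edgeR's quasi-likelihood test. For 23 of the 27 the EpCAM mean lay above FSChi. The other 4 were Scn2a, a neuronal sodium channel (log2 fold change 6.84 ± 0.64), and the potassium channels Kcnh7 (3.46 ± 0.57), Kcnh2 (1.67 ± 0.45) and Kcnq1 (1.27 ± 0.28). Scn2a stood at 20.9, 50.6, 5.38, 11.4 and 57.4 CPM in FSChi and had 6 counts in FSClow. Those called lower included Kcnk5 (-1.59 ± 0.52), Cacna1d (-1.196 ± 0.235) and Kcnj4 (-1.54 ± 0.53). Without FSChi replicate 2 or FSClow replicate 5, 2 of the 4 were called. The Kcnj4 call was lost without FSChi replicate 1, 2, 3 or 4, FSClow replicate 3, 5 or 8 or EpCAM replicate 4 (adjusted p 0.051 to 0.12). Kcnj4 stood at only 0.37 to 2.48 CPM in FSChi. The Kcnk5 call was lost without FSChi replicate 2 or 5 or FSClow replicate 5 (adjusted p 0.058 to 0.072).

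Of 21 vesicle exocytosis genes tested 15 were called higher, beside 15.5% of all genes tested, and 0 lower, and of 19 cell cycle genes 8 higher and 0 lower. In all 15 and all 8 the EpCAM mean lay above FSChi. Snap25, a synaptic fusion protein, stood at 43.0, 0, 25.5, 68.1 and 34.4 CPM in FSChi (4.80 ± 0.71, or 5.69 without FSClow replicate 4), and was thus absent from the library with the lowest olfactory neuron markers. Mki67, a proliferation marker, stood at 2.59, 4.82, 7.39, 24.6 and 2.13 CPM (2.89 ± 0.55, or 1.91 without FSChi replicate 4). The part of other cells' RNA in these groups was not tested.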
